A study of Mus musculus with 2 samples.

Results

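The microRNA genes described here lie in introns of Htr2c, the X-linked gene of the serotonin receptor 5-HT2C. They were chosen by symbol and position as the annotated microRNA genes on the Htr2c strand inside its introns, and 7 of the 2202 genes in the count tables met the rule. The group was drawn up with its counts already known, among them the difference between the libraries, so every value below is a description and no test was made on it. Small RNA of a size labelled as under 30 was sequenced from the hippocampus of B6CASTF1/J females, the F1 hybrid of C57BL/6J and CAST/EiJ, at an age of 14 days. The labels name 1 group with 2 biological replicates and 1 technical replicate each, no treatment, and a pool of 3 females behind each replicate. The tissue label speaks of a layer of the hippocampus and names none.

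Htr2c encodes a receptor coupled to a G protein, which neurons in many brain regions carry and which the epithelium of the choroid plexus, the tissue that makes cerebrospinal fluid, holds in great quantity. A microRNA in an intron can be released from the host transcript by the nuclease Drosha, exported as a hairpin and cut by Dicer into a mature strand from either arm. The mature strand then finds messenger RNAs mainly through its seed, the bases near its 5′ end, and lowers their translation or stability.

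The host gene (ENSMUSG00000041380.13) covers chrX:146962513-147197277 on the plus strand of GRCm38, a length of 235 kb, and its principal transcript Htr2c-202 has 7 exons. From the gene's start onward, the members came in the order Gm22650, Mir764, Mir1912, Mir1264, Mir1298, Gm24627 and Mir448, all on the plus strand. The first 5 lie in intron 3, which is 85268 bases long, and Gm24627 and Mir448 lie in intron 5 of 93522 bases. Mir1912 and Mir1264 are the closest neighbours, 1073 bases apart, while 54218 bases separate Mir1264 from Mir1298. Of the 7 annotated Htr2c transcripts, 1 ends before the first member. No other annotated microRNA gene of that strand lies between the members, and the nearest outside them, Mir3472 and Mir3113, are 1960 kb upstream and 4701 kb downstream, with 0 counts in both libraries and with 1 and 0 counts.

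RefSeq (build GRCm38.p6) gives 11 mature strands for the 7 genes, and they are shown because the seed decides which messenger RNAs a strand can recognise. Capitals mark the seed, bases 2 to 8.
mmu-miR-3552 of Gm22650: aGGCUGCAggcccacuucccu
mmu-miR-764-5p: gGUGCUCAcauguccuccu
mmu-miR-764-3p: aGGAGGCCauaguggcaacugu
mmu-miR-1912-3p: cACAGAACaugcagugagaacu
mmu-miR-1264-3p: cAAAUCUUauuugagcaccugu
mmu-miR-1298-5p: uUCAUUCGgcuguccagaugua
mmu-miR-1298-3p: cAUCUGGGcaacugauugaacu
mmu-miR-1911-5p of Gm24627: uGAGUACAgccaugucuguuggg
mmu-miR-1911-3p of Gm24627: cACCAGGCauuguggucucugc
mmu-miR-448-5p: gAACAUCCugcauagugcugcc
mmu-miR-448-3p: uUGCAUAUguaggaugucccau

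No seed occurred in more than 1 member, so the 7 genes share an annotated host gene and not a seed. Among all other mature strands in the RefSeq table, only mmu-miR-7062-5p carries the seed of a member, that of mmu-miR-764-3p. Mir7062 had 3 counts in each library. The longest run of bases that a member shares with any other annotated microRNA gene, on either strand, was 13, in Gm22650, Mir764 and Mir448. A multi-mapping read is not counted in a gene in these tables, and the members hold no run of 20 bases in common with another microRNA gene.

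Over the shorter stretch of bases 2 to 7, mmu-miR-1298-5p has a relative outside the cluster, mmu-miR-12187-3p. The strands of Mir448 have relatives there too, mmu-miR-153-3p and mmu-miR-6335 for mmu-miR-448-3p and mmu-miR-499-3p for mmu-miR-448-5p. The strand of Mir153, a microRNA of neurons made from chromosome 12, also shares base 1 with mmu-miR-448-3p but not base 8, so the full seeds differ. This pair is set side by side here, with the shared start of 7 bases in capitals.
mmu-miR-448-3p: UUGCAUAuguaggaugucccau
mmu-miR-153-3p: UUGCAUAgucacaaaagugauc

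Mir153 stood at 197 CPM (counts scaled to 1000000 counts in the library's microRNA genes) in replicate 1 and 69.8 in replicate 2. Mir448 stood at 182 CPM in replicate 1 and 30.9 in replicate 2. The mature strands of the members are 19 to 23 bases long, so levels of genes were compared without a correction for length. In both libraries the level of Mir448 was below that of Mir153. The counts were close in replicate 1, at 869 and 939, and no interval was computed for this pair, so the order there is uncertain. The level of Mir448 was above those of Mir499, at 1.05 and 8.06 CPM, and Mir6335, which had 0 counts in both libraries.

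A count in these tables belongs to a precursor gene, so the arms of a hairpin are not separated. The hairpins of the member with the most reads and of the member with none are shown with their annotated mature strands in capitals. They are Mir1298, at chrX:147064905-147065002, and Gm24627, whose RefSeq hairpin is at chrX:147106965-147107047.
Mir1298 hairpin: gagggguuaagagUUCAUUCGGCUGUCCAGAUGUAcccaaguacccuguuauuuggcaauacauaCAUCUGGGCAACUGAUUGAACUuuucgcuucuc
Gm24627 hairpin: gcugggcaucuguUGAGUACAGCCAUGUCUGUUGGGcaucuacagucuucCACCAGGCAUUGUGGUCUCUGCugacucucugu

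The hairpins differ in predicted stability. RNAfold gave the Mir1298 hairpin a minimum free energy of -0.47 kcal/mol per base and the Gm24627 hairpin -0.28, beside a median of -0.41 over 1005 mouse hairpins. Mir1912, Mir764 and Mir448 came to -0.47, -0.46 and -0.45 per base, and Gm22650 to -0.36. Of the 6 members with a hairpin sequence, Gm24627 was thus predicted to fold least tightly, at the 92.8 percentile of all hairpins, where a high percentile means a less stable fold.

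Counts in microRNA genes summed to 4764797 in replicate 1 and 2852269 in replicate 2, and 37.1% to 40.8% of all reads were multi-mapping and stayed outside the genes. With these depths, 3 counts, the limit that a count of 0 allows, correspond to 0.630 CPM in replicate 1 and 1.05 CPM in replicate 2. Reads were not marked by molecular identifiers as far as the sources used here say, so intervals and limits cover counting error only. Since there was a single library from each pool, what differs between the animals and what differs between library preparations cannot be told apart. As a check of the tissue, 12 of 15 neuron-enriched microRNA genes reached 10 counts in each library, beside 18.6% of all genes. Those that did not included Mir124a-2, with 2 and 1 counts, and Mir124a-3, with 0 and 1. Multi-mapping reads stayed outside the genes, so a low count of a gene with copies elsewhere does not show that its mature strand was rare. The list held 7.81% and 10.7% of the counts.

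The 7 Htr2c-intron genes together had 19864 counts in replicate 1 and 420 in replicate 2. This was 0.417% of all counts in replicate 1 (exact Clopper-Pearson 95% interval 0.411 to 0.423) and 0.0147% in replicate 2 (0.0134 to 0.0162), or 0.216% ± 0.284 (SD, n = 2). Replicate 1 was high and replicate 2 low, and the intervals lay far apart. With 0.5 added to each count and library sizes scaled by TMM, the summed level was 26.0-fold higher in replicate 1. Without Mir1298 the sum of the other 6 genes was 4.99-fold higher in replicate 1, and their mean share was 0.0191% ± 0.0186 (SD, n = 2).

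A minimum of 10 counts in each library was reached by 5 of the 7 genes, Mir1298, Mir448, Mir1264, Mir764 and Gm22650. Over all 2202 genes the share that reached this minimum was 18.6%. Mir1912 was under it in replicate 2 and Gm24627 had no count. The strand column opposite to the genes held 0 counts for all 7 members in both libraries, and the unstranded column repeated their sense counts.

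**Figure D1:**
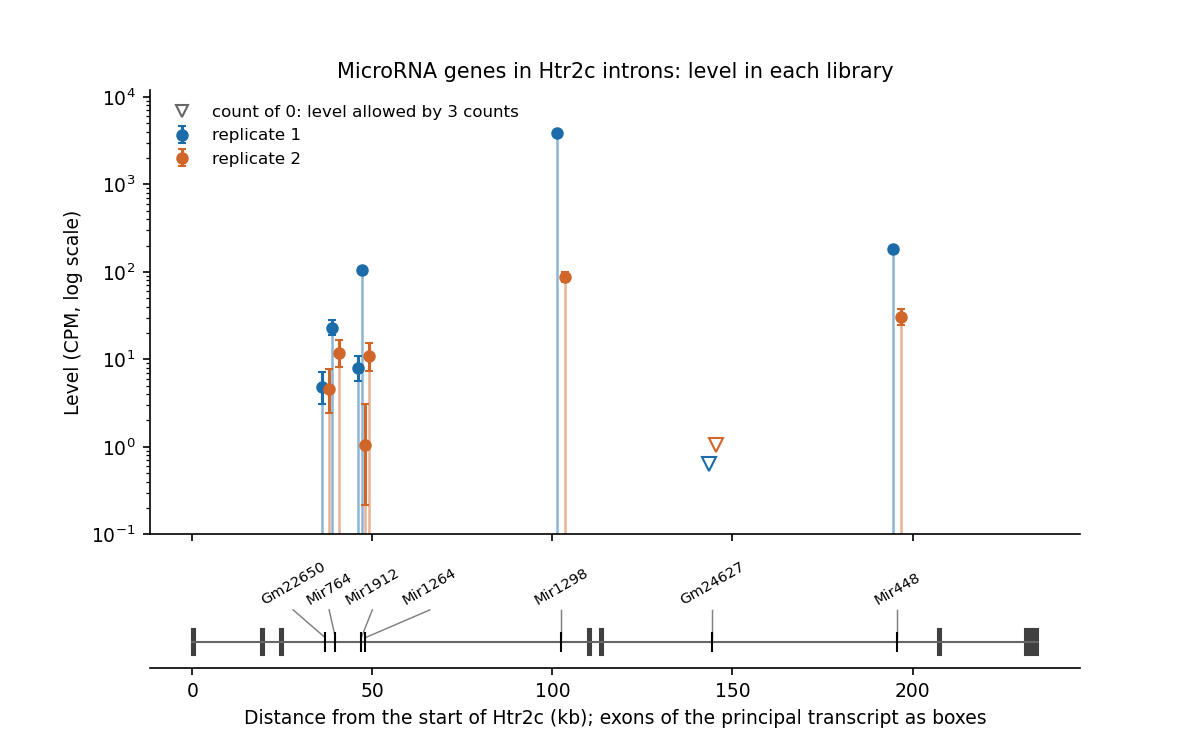
Level of each microRNA gene (CPM, log scale) against its distance from the start of Htr2c in kb, drawn 1 kb to the left of the position for replicate 1 and 1 kb to the right for replicate 2, with exact Poisson 95% counting intervals; triangles mark the level that a count of 0 allows, and boxes below are exons. Mir1298 stood highest in both libraries, at 3846 and 88.0 CPM, and Gm24627 had no counts.

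Mir1298 (ENSMUSG00000080331.1, chrX:147064905-147065002) was the most abundant member in both libraries. It had 18326 counts or 3846 CPM in replicate 1 and 251 counts or 88.0 CPM in replicate 2. It ranked 49th of all microRNA genes in replicate 1 and 217th in replicate 2. The log2 ratio of replicate 2 to replicate 1 was -5.32 (95% counting interval -5.51 to -5.15), the lowest of the 450 genes whose counts in both libraries sum to 20 or more. On a linear scale its level was 40.1-fold higher in replicate 1.

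Mir448 (ENSMUSG00000065450.1, chrX:147158210-147158321), known in mouse adipocyte precursors as a repressor of fat cell formation, came second in both libraries. It had 869 counts or 182 CPM in replicate 1 and 88 counts or 30.9 CPM in replicate 2, a log2 ratio of -2.43 (-2.77 to -2.12). It lies in intron 5, farthest from the start of the gene, at 196 kb.

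Mir1264 (ENSMUSG00000093122.1, chrX:147010601-147010686) came next in replicate 1 with 498 counts, or 105 CPM. In replicate 2 it had 31 counts, or 10.9 CPM, and the log2 ratio was -3.12 (-3.72 to -2.62). Its close neighbour Mir1912 (ENSMUSG00000093039.1, chrX:147009441-147009527) had 38 counts or 7.98 CPM in replicate 1 and 3 counts or 1.05 CPM in replicate 2. The log2 ratio of Mir1912 was -2.60 with a wide counting interval of -5.14 to -1.14, and it reached the summed count of 20 through replicate 1.

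Mir764 (ENSMUSG00000076458.1, chrX:147002259-147002366), described in mouse cells as a brake on osteoblast differentiation, had 110 counts or 23.1 CPM in replicate 1 and 34 counts or 11.9 CPM in replicate 2. Its log2 ratio was -0.82 (-1.43 to -0.26), so replicate 1 was higher by less than 2-fold. Gm22650 (ENSMUSG00000092879.1, chrX:146999405-146999509) had 23 counts or 4.83 CPM in replicate 1 and 13 counts or 4.56 CPM in replicate 2. Its log2 ratio was 0.06, or -0.06 with total counts as library sizes, and the interval of -1.06 to 1.08 leaves room for a 2-fold difference in either direction. Gm24627 (ENSMUSG00000084713.2, chrX:147106939-147107076) had 0 counts in both libraries, which allows a level of up to 0.630 and 1.05 CPM by the limit of 3 counts. The upper bounds of the exact Poisson 95% interval, used for the other members, are 0.774 and 1.29 CPM.

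By mean level over both libraries the order was Mir1298 at 1967 ± 2657 CPM (SD, n = 2), Mir448 at 107 ± 107, Mir1264 at 57.7 ± 66.2, Mir764 at 17.5 ± 7.90, Gm22650 at 4.69 ± 0.190 and Mir1912 at 4.51 ± 4.90 CPM. For every neighbouring pair in this order except Mir764 and Gm22650, the ranges over both libraries overlapped. Mir764 lay above Gm22650 in both libraries, with its lower value at 11.9 CPM and the higher value of Gm22650 at 4.83. Within a library the order was sharper, though not at every step. In replicate 1 the counts fell from Mir1298 through Mir448, Mir1264, Mir764 and Mir1912 to Gm22650. The last step there is uncertain, as the ratio of Gm22650 to Mir1912 was 0.605 with an interval of 0.344 to 1.04. In replicate 2 Mir764 and Mir1264 lay side by side at 34 and 31 counts, and Gm22650 lay above Mir1912.

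More than 2-fold lower in replicate 2 were 4 of the 6 members with a sum of 20 counts or more, namely Mir1298, Mir448, Mir1264 and Mir1912. The share over all 450 genes was 10.9%, and since the members were chosen with this difference known, nothing is read from the contrast with it. None of the 6 was more than 2-fold higher, against 10.4% of all genes. The members' median log2 ratio was -2.52, and that of all 450 genes was 0.01. The same 4 members were among the 10 genes with the lowest ratios of all, together with Mir363, Mir301, Mir3088, Mir5620, Mir148a and Mir301b.

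**Figure D2:**
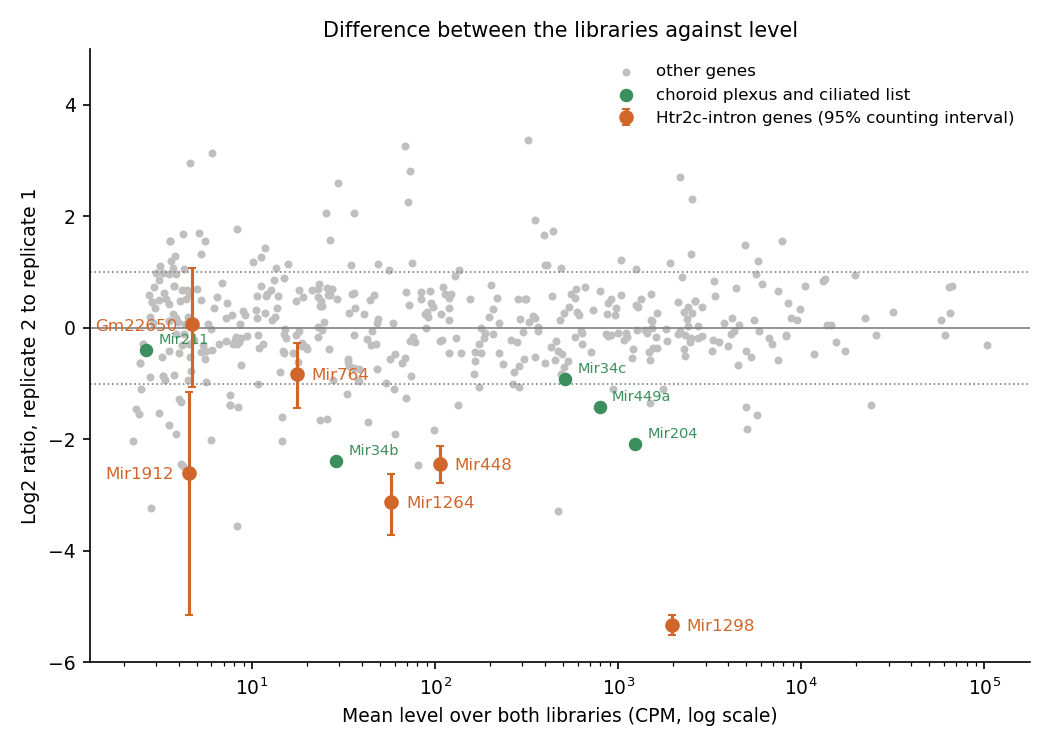
Log2 ratio of replicate 2 to replicate 1 against the mean level in CPM (log scale) for 450 genes, with the Htr2c-intron genes in orange (bars are 95% counting intervals) and the choroid plexus and ciliated epithelium list in green; dotted lines mark 2-fold. Mir1298 lies lowest of all at -5.32, and Gm22650 lies at 0.06.

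The make-up of the cluster differed between the libraries, a comparison within each library that does not depend on how libraries are scaled. The shares are parts of a whole, so a lower share of Mir1298 makes that of the other members together higher. In CPM, Mir448, Mir1264 and Mir764 were each lower in replicate 2. Mir1298 held 92.3% of the members' counts in replicate 1 (91.9 to 92.6) and 59.8% in replicate 2 (54.9 to 64.5). Mir448 held 4.37% (4.09 to 4.67) and 20.95% (17.2 to 25.2), and Mir764 held 0.554% (0.455 to 0.667) and 8.10% (5.67 to 11.1). For each of these 3 genes the intervals of the libraries did not overlap. The same held for Mir1264, at 2.51% (2.29 to 2.73) and 7.38% (5.07 to 10.3). It held for Gm22650 as well, at 0.116% (0.0734 to 0.174) and 3.10% (1.66 to 5.23). The intervals of Mir1912, at 0.191% (0.135 to 0.262) and 0.714% (0.148 to 2.07), overlapped. All these intervals cover counting error only, and the members were chosen with the difference between the libraries known. Such shares were not compared for other groups of microRNA genes, so nothing particular to the cluster is read from them.

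Ratios between members were compared for 9 pairs. There were 21.1 counts of Mir1298 for each count of Mir448 in replicate 1 (19.7 to 22.6) and 2.85 in replicate 2 (2.23 to 3.68). Mir1264 and Mir1912, the neighbours 1073 bases apart, stood at 13.1 to 1 in replicate 1 (9.42 to 18.7) and at 10.3 to 1 in replicate 2, where 3 counts of Mir1912 leave an interval of 3.22 to 52.8. Mir1264 and Mir448, in different introns, gave 0.573 (0.512 to 0.641) and 0.352 (0.226 to 0.536), with overlapping intervals. Mir764 and Gm22650, the first members of intron 3, gave 4.78 (3.03 to 7.86) and 2.62 (1.35 to 5.40), which overlap as well. Against Mir764, however, Mir1264 went from 4.53 (3.68 to 5.62) to 0.912 (0.542 to 1.53). Mir1298 to Mir764 went from 167 (138 to 203) to 7.38 (5.15 to 10.9), Mir448 to Mir764 from 7.90 (6.47 to 9.72) to 2.59 (1.72 to 3.97), and Mir1298 to Mir1264 from 36.8 (33.7 to 40.3) to 8.10 (5.56 to 12.2). Gm22650 to Mir1912, where the gene with the lower log2 ratio is named second, rose from 0.605 (0.344 to 1.04) to 4.33 (1.19 to 23.7). In all, the intervals of 6 pairs did not overlap between the libraries and those of 3 did, and an overlap does not show that a proportion was the same. The 9 pairs are not all that the members can form, and they use the same genes repeatedly. No such count was made for pairs of other microRNA genes, so nothing particular to the cluster is read from it.

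**Figure D3:**
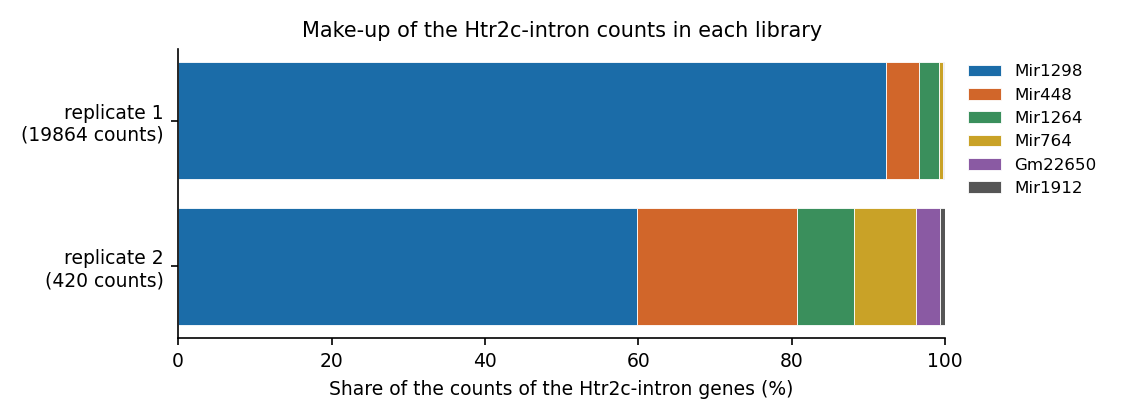
Share of the summed counts of the Htr2c-intron genes (%) that each gene held in replicate 1 (19864 counts) and replicate 2 (420 counts); Gm24627 had none. Mir1298 takes 92.3% of the bar in replicate 1 and 59.8% in replicate 2, where Mir448, Mir1264 and Mir764 take visibly more of a smaller total.

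Within intron 3 the log2 ratio was lower at each member farther from the gene's start. It went from 0.06 in Gm22650 and -0.82 in Mir764 to -2.60 in Mir1912, -3.12 in Mir1264 and, at 102 kb, -5.32 in Mir1298. The counting interval of Mir1912 covers the values of Mir764's interval in part and that of Mir1264 whole, so its place in this order is uncertain, and the intervals of Gm22650 and Mir764 overlap too. Mir448 in intron 5, at 196 kb, did not follow the order, at -2.43. Summed by intron, the genes of intron 3 went from 3987 to 116 CPM and those of intron 5, all of it Mir448, from 182 to 30.9 CPM. Without Mir1298 the members ran from -3.12 to 0.06.

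There were 7 host genes with at least 3 microRNA genes of summed count 20 or more in their introns. Htr2c had the widest range of log2 ratios among them, 5.39, from Mir1298 to Gm22650. Rian, a non-coding host of the imprinted Dlk1-Dio3 region, followed with 2.10. Clcn5, the other X-linked host and a chloride transporter gene, spanned 1.11 over 5 genes, from -0.60 in Mir188 to 0.51 in Mir500. Htr2c was chosen with its ratios known, and its rarest of these members had a mean of 18 counts against 153 in Clcn5, so these ranges describe the hosts and were not tested against each other.

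**Figure D4:**
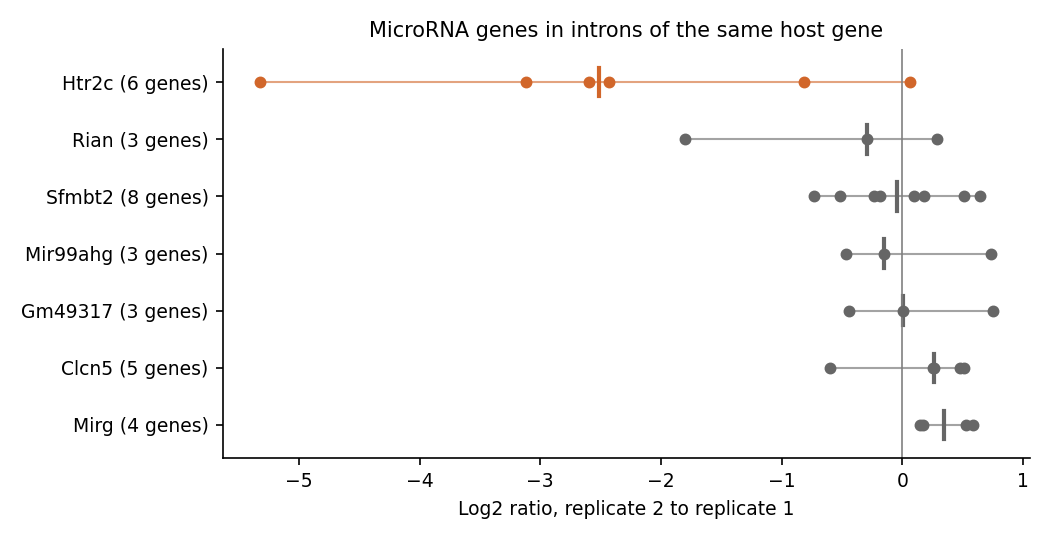
Log2 ratio of replicate 2 to replicate 1 for microRNA genes in introns of the same host gene; points are genes, thick ticks medians and thin lines ranges. The Htr2c genes range from -5.32 to 0.06, and the other 6 hosts have medians between -0.29 and 0.35.

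Elsewhere on the X chromosome the libraries differed less in sum. The 135 X-linked microRNA genes outside Htr2c summed to 40859 CPM in replicate 1 and 42372 CPM in replicate 2. Of the 35 with a sum of 20 counts or more, 6 (17.1%) were more than 2-fold lower in replicate 2, beside 10.9% of all genes, and 1 was more than 2-fold higher, beside 10.4% of all genes. Their median log2 ratio was -0.22. Mir363, a member of the mir-106a-363 cluster, was lowest at -3.55 (-6.07 to -2.16), with 74 and 3 counts.

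MicroRNAs of choroid plexus and ciliated epithelium moved in the same direction as most Htr2c-intron genes. Of this list of 7 genes, 4 had 10 or more counts in each library, beside 18.6% of all genes. The list summed to 3951 CPM in replicate 1 and 1189 CPM in replicate 2. Of its 5 genes with a sum of 20 counts or more, 3 were more than 2-fold lower in replicate 2, beside the 10.9% of all genes, and the median log2 ratio was -1.42. Mir204, abundant in choroid plexus, went from 2027 to 439 CPM (-2.08), and Mir449a of multiciliated cells from 1179 to 404 CPM (-1.42). Mir34b gave -2.39 and Mir34c -0.92, while Mir211 with 15 and 6 counts gave -0.39. Mir449c had 3 and 1 counts and Mir449b none.

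In sum the choroid and ciliated list was 3.05-fold higher in replicate 1, the Htr2c-intron genes 26.0-fold, and the Htr2c-intron genes without Mir1298 4.99-fold. In bulk tissue, fewer cells of a type and less RNA per cell cannot be told apart, and the part of choroid plexus in the Htr2c values was not tested. Other epithelial microRNAs ran the other way, from 173 to 543 CPM, with 7 of the 9 genes that reached 20 counts in sum more than 2-fold higher in replicate 2, beside 10.4% of all genes, and 1 at a log2 ratio of -0.73. The neuron-enriched list had a median log2 ratio of 0.02 over 12 such genes, with 3 more than 2-fold lower and 3 more than 2-fold higher, beside 10.9% and 10.4% of all genes.

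Among genes outside the cluster with a mean of at least 100 counts, the 5 with the lowest ratios were taken as most like the lower Htr2c-intron genes in the size and direction of the difference, over these 2 libraries. Mir301, within an intron of Ska2, went from 855 to 80.6 CPM (-3.28, interval -3.48 to -3.09), and Mir148a from 139 to 23.1 CPM (-2.45). Mir34b and Mir204, named above, were next. Mir214 went from 97.2 to 23.8 CPM (-1.90, interval -2.29 to -1.54). The ratio of Mir1298 lay below all 5, and those of Mir448, Mir1264 and Mir1912 lay between the ratios of Mir301 and Mir34b. Mir764 at -0.82 and Gm22650 at 0.06 lay above all 5.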

How the data were processed

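Raw counts of reads per microRNA gene were deposited by the authors, 1 table per library with 3 count columns, made on assembly mm10 with annotation M21 per the text deposited beside them. Which aligner and which counter made them is not given in the sources used here. Of the strand columns, that with the larger total was used as sense. The 4 lines of unmapped, multi-mapping, unassigned and ambiguous reads, 63.9% and 63.6% of reads, stayed out of library sizes. All 2202 identifiers matched GENCODE M21, which gave symbols, positions and introns. Sequences are from RefSeq tables of GRCm38.p6.

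CPM was computed from the deposited counts. Log2 ratios used 0.5 added to each count and library sizes scaled by the TMM method of edgeR 4.0.16 (R 4.3.3) over 450 genes whose counts sum to 20 or more. Intervals are exact Clopper-Pearson or Poisson intervals at 95% and cover counting error only. Ratios and intervals were tested on simulated counts drawn with counting error only. That check says nothing of the spread between pools or library preparations. A host gene is a gene on the same strand that contains the microRNA gene with no exon overlap. Folding used RNAfold 2.7.2 at 37 °C. Other work used Python 3.11.15 with scipy 1.17.1.

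The members, lists and named genes were chosen with earlier results of these data known. Named genes were the 7 members, the choroid list, the nearest microRNA genes, and the 5 other genes with a mean of at least 100 counts and the lowest ratio. Seed relatives, genes at the extremes of lists and hosts, and the 10 lowest ratios were named after their values were seen. No conditions could be compared within 1 group, and no test was run. Signal tracks and alignments were not used here.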

Additional observations from a re-analysis of the deposited data

How the results depend on the processing

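The number of Htr2c-intron genes more than 2-fold lower in replicate 2 was 4 with total counts or DESeq2 1.42.0 size factors as scaling, the unstranded column, thinning of the deeper library, no filter, and also at a limit of 4-fold. The count was 3 with a summed count of at least 200 and 5 at 1.5-fold. Over 6 alternatives the log2 ratio of Mir1298 ran from -5.45 to -5.30, that of Mir1264 from -3.24 to -2.94, that of Mir448 from -2.56 to -2.37 and that of Mir764 from -0.94 to -0.70. Mir1912, with 3 counts in replicate 2, ran from -2.83 to -1.56 and depended on the count added. Gm22650 ran from -0.06 to 0.23, so its sign depends on the scaling. Total counts in place of TMM moved the median of all genes by -0.12.

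The share of the 7 genes was 0.0147% without replicate 1 and 0.417% without replicate 2, each the value of the other library alone. Without Mir1298, an alternative chosen after seeing the data, the mean share over both libraries was 0.0191%. For all 7 genes, Mir1298 included, the mean share was 0.0779% with all reads as the base. With at least 20 counts in both libraries 4 members were detected in place of 5. Over all genes, those more than 2-fold lower and higher numbered 133 and 136 with no filter, 27 and 25 with a summed count of at least 200, 87 and 104 at 1.5-fold, and 15 and 11 at 4-fold, beside 49 and 47. These settings change which genes are counted. The depth limits Mir1912, Gm22650 and Gm24627. No paired analysis was possible because the labels give 1 group.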
